A study of Homo sapiens with 8 samples.

Results

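The 46 genes described here encode proteins that copy DNA in S phase, and were measured as RNA and as accessible chromatin in Raji, an established Burkitt lymphoma line derived from a B cell. They were taken by gene symbol from a fixed list in 5 roles: origin licensing (11 genes), the replicative helicase with the GINS complex (12), DNA polymerases (9), the sliding clamp with its loader, lagging strand enzymes and RPA (11), and nucleotide supply (3). All 46 were among the 25377 genes of the RNA table, and 128 of the 70312 ATAC-seq peaks carried the name of 43 of them. Wild-type Raji cells were compared with cells in which CRISPR/Cas9 targeted a super-enhancer region on chromosome 1 (192515157 to 192741754, hg38), the RGS-SE knockout. Every group was made of cultured Raji cells, and the treatment text describes single clones without giving their number or saying whether wild-type cells went through electroporation and puromycin selection. Genotype and clone therefore cannot be told apart. RNA-seq and ATAC-seq each had 2 wild-type and 2 knockout libraries, 8 in all.

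DNA replication begins when the origin recognition complex, CDC6 and CDT1 load the MCM2 to MCM7 ring onto DNA, a step called licensing that geminin blocks once S phase has begun. CDC45 and GINS then join the ring to form the active helicase, primase and DNA polymerase alpha lay primers, and polymerases delta and epsilon extend them on the PCNA clamp. Most of these genes are transcribed around the start of S phase under the E2F factors, and rapidly dividing Burkitt lymphoma cells express them at high levels.

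The deposited tables gave a mean count over the 4 libraries of an assay and a fold change with its standard error (SE), not a value per library. Each genotype is therefore described by a fitted normalised count, computed from that mean and fold change. The spread between libraries enters only through the SE, which rests on 2 libraries against 2. The labels call the replicates biological, without saying that they came from separate clones. The 25377 genes summed to a mean normalised count of 3.28e+07 and the peaks to 1.99e+07. RNA size factors, which scale with relative depth, were 1.30 and 0.717 for wild type and 1.07 and 1.03 for the knockout. All 8 B cell markers checked were present, at mean counts from 1924 to 34542, while no T or NK cell marker exceeded 5.76 and no myeloid marker exceeded 38.3. Among the B cell markers, MS4A1 and CD74 rose (deposited log2 fold changes 1.06 and 0.73, adjusted p 1.24e-06 and 1.04e-05), CD79B fell (-0.78, adjusted p 0.000203) and the other 5 did not pass. COL1A1, a fibroblast collagen gene, rose from a fitted 129 to 278 (1.10, adjusted p 0.0180), 1 of 7 epithelial, fibroblast and erythroid markers. The part of these marker changes in the results below was not tested. A positive log2 fold change was read as higher in the knockout, because the peak at chr1:192609102-192609836 in the targeted region was close to absent on one side (fitted counts of 622 and 0.186). Among the 18 peaks of that region, the next lowest log2 fold changes were -0.97 and -0.84 (fitted knockout counts of 78.2 and 593). Signal thus remained at other peaks of the region. The tables do not state the direction, and every direction given here would turn if it were coded the other way.

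Proximal promoters of 6 genes are printed, chosen among genes whose RNA changed in the knockout. Each lies wholly within an ATAC peak over its start. They are the 250 bases before the RefSeq start on GRCh38.p14, written on the gene's own strand, 5′ to 3′. Capitals mark every match to an E2F-type site, TTNNCGC with C or G at both N, on either strand. CDC6, GINS1, GINS3, MCM2, RFC2 and RRM2 met the same conditions but held no match and are not printed. The printed set therefore shows matches more often than the changed genes do. CDT1 (chr16:88803539-88803788, plus strand), the licensing factor with the largest fall, comes first. GINS2 (chr16:85688955-85689204, minus strand) is a helicase subunit that fell, and ORC3 (chr6:87589885-87590134, plus strand) an origin recognition subunit that rose. PRIM1 (chr12:56752324-56752573, minus strand) encodes the catalytic primase subunit, LIG1 (chr19:48170345-48170594, minus strand) the ligase of the lagging strand, and POLD1 (chr19:50384073-50384322, plus strand) the catalytic subunit of polymerase delta.
CDT1: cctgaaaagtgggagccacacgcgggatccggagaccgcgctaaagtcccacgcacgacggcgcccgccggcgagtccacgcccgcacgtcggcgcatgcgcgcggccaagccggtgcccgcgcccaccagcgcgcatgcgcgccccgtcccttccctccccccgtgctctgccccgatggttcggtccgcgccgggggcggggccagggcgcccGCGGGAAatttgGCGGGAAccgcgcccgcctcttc
GINS2: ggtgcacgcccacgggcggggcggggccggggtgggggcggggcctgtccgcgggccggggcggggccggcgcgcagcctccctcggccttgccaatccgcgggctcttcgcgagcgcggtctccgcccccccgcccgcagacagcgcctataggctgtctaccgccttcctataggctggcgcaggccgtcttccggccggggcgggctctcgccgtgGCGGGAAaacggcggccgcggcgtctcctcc
ORC3: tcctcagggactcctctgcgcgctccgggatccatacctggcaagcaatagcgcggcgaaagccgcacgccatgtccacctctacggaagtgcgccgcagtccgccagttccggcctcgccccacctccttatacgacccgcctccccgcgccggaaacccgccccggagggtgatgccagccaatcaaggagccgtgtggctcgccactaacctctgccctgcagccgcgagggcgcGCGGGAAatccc
PRIM1: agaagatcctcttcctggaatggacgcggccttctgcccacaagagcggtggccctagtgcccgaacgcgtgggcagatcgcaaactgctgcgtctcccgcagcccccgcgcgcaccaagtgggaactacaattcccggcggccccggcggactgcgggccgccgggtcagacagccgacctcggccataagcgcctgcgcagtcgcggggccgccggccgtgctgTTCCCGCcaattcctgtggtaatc
LIG1: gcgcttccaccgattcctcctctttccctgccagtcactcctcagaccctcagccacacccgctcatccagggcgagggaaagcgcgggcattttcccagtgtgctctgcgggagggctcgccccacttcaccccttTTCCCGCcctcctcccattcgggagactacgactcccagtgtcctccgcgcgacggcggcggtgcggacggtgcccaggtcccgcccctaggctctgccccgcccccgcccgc
POLD1: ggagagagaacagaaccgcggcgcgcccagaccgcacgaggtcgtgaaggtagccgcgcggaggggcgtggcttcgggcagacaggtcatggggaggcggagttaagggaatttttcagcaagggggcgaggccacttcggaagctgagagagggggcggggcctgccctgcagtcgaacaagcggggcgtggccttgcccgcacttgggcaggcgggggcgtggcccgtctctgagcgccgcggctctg

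The printed promoters show matches close to the start in 4 genes. Counted from the start, the first base of a match lay at -35 and -23 in CDT1, at -31 in GINS2, at -24 in PRIM1 and at -12 in ORC3. The match in LIG1 lay farther out, at -113, and the POLD1 window held none. RefSeq promoters were found for 39 of the 46 genes, and 18 of these 39 (46.2%) held at least 1 match, against 10.9% of all 35116 promoters of the same length and 17.4% of the 10513 promoters of tested genes expressed at or above the lowest of the 46. The CCAAT box, the other motif searched on both strands, was in 22 of 39 (56.4%), against 32.0% and 34.8%. The 2 motifs can share bases. The 10513 promoters outnumber the 9082 tested genes at or above that lowest mean, so some genes count there more than once. Each of the 39 genes counts once. The windows of ORC4, PCNA and PRIM2 did not lie wholly within the peak over the start. By RNA result, an E2F-type match was in 4 of 9 promoters of genes that fell, 1 of 4 that rose and 13 of 26 that did not pass. CDT1 fell and ORC3 rose with a match of the same letters near the start. A match is a description of letters and not a bound site.

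In the knockout, 12 of the 46 replication genes fell, 6 rose and 28 did not pass the threshold of an adjusted p under 0.05 (DESeq2 Wald test as found in the authors' deposited table, adjusted over 17013 tested genes). The 18 that passed make 39.1%. The background was 19.2% of all tested genes (9.89% higher and 9.28% lower), and 27.6% (13.9% higher and 13.7% lower) of the 9082 tested genes with a mean at or above 252, the lowest of the 46. All of the 46 were well measured, with mean counts from 252 to 24983 and a median of 2707, and 45 of them lay above the median tested gene. Changes were modest: the median log2 fold change was -0.20, against 0.02 for all tested genes, with 34 negative and 12 positive values. The genes that fell had a median of -0.73 and those that rose a median of 0.66. CDT1 was the 1 gene that changed by at least 1 log2 unit. Summed over the 46 genes, the fitted count went from 232762 in wild type to 195236 in the knockout, 83.9% of the wild-type sum. Abundant genes weigh most in that sum, and MCM4 made the largest single drop. None of the 46 passed a test against a 1.5-fold change, which 3.94% of tested genes passed, although 2 had an unadjusted p under 0.05 there. None passed either when all statistics were divided by their robust spread of 2.27 (1.03% of tested genes passed, and 4 of the 46 had an unadjusted p under 0.05).

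**Figure D1:**
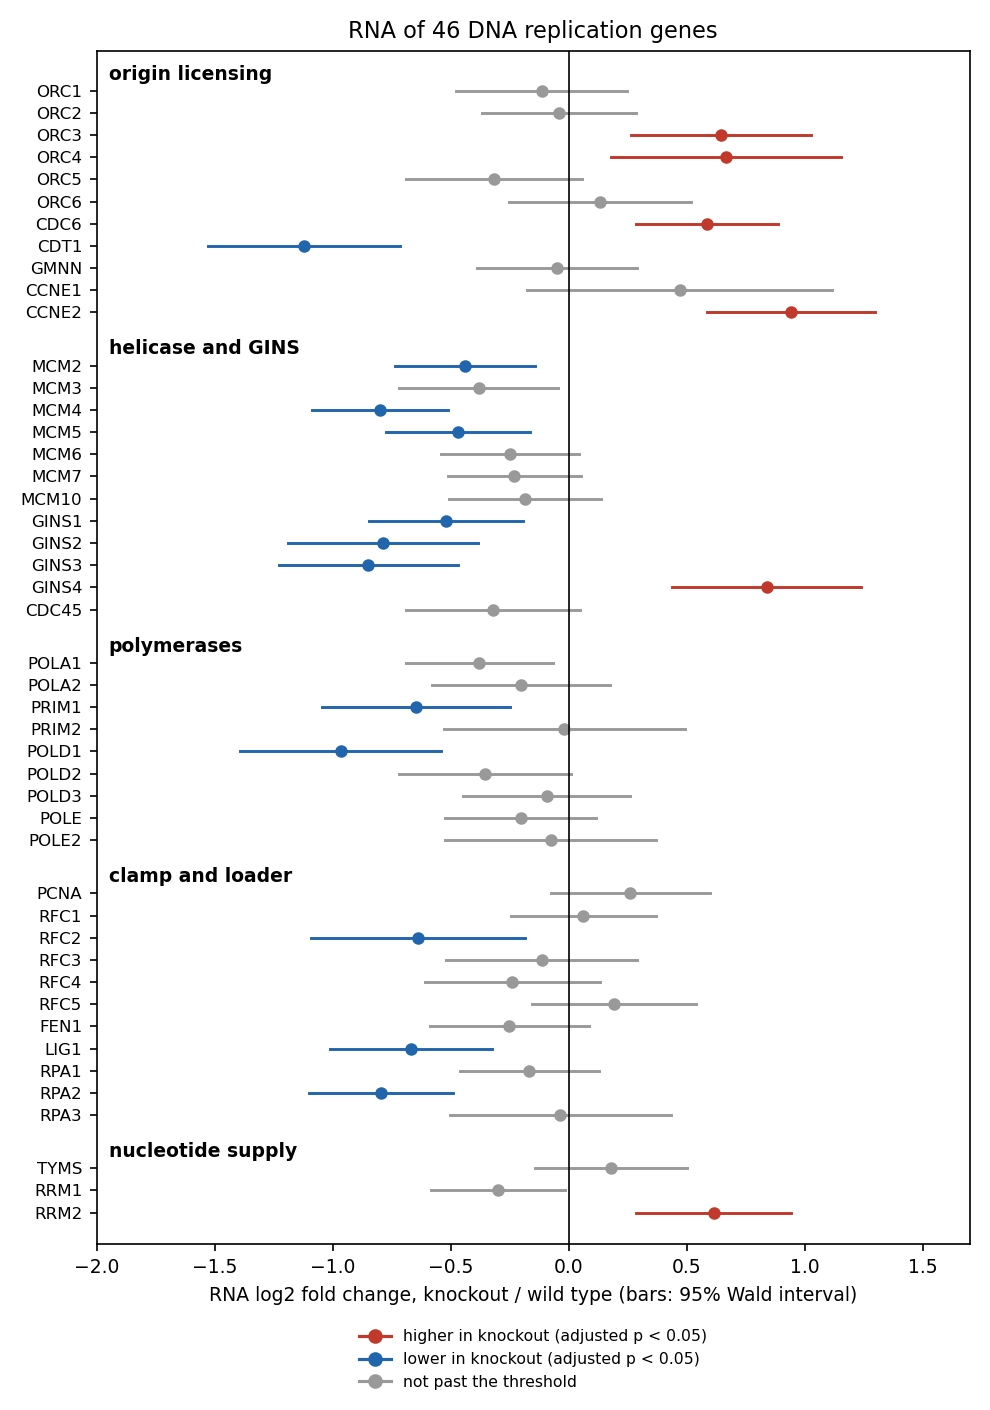
RNA log2 fold change, knockout over wild type, of the 46 DNA replication genes by role, as deposited (2 libraries per genotype). Points are fold changes, bars 95% Wald intervals. Red genes rose (6), blue genes fell (12) and grey genes (28) did not pass the threshold. The helicase and polymerase genes lie mostly left of 0, with GINS4 the 1 gene of these roles that rose.

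Among the 11 licensing genes, 4 rose, 1 fell and 6 did not pass, and the median log2 fold change was 0.13. CDT1, which brings the MCM ring to the origin (chr16:88803789-88809258), had fitted counts of 2487 in wild type and 1144 in the knockout, a deposited log2 fold change of -1.12 (SE 0.21, adjusted p 1.76e-06). It was the deepest fall of the 46. CDC6, the ATPase that works with CDT1 in loading (chr17:40287879-40304657), went the other way, from 4633 to 6952, a deposited change of 0.59 (SE 0.15, adjusted p 0.00151). The 2 loading factors thus moved in opposite directions. GMNN, which encodes geminin, the inhibitor of CDT1, had 2006 and 1939 (deposited log2 fold change -0.05, 95% interval -0.39 to 0.29), which did not pass.

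ORC3 and ORC4, subunits of the ring that marks origins, were the 2 of 6 origin recognition genes that rose. ORC3 (chr6:87590067-87667453) went from 1467 to 2294, a deposited log2 fold change of 0.64 (SE 0.19, adjusted p 0.00761). ORC4 (chr2:147930396-148021604) went from 760 to 1207, or 0.67 (SE 0.25, adjusted p 0.0396). Both shared their chromosomal surroundings with other raised genes, as described further on, and the ORC4 call ended when the p-values were adjusted over all rows of the table with no filter on low counts (adjusted p 0.0590). The other 4 subunits, ORC1, ORC2, ORC5 and ORC6, had deposited values from -0.32 to 0.13 and did not pass. Summed over the 6 subunits, fitted counts were 9736 for wild type against 10561 for the knockout.

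Cyclin E drives CDK2 at the entry to S phase and was grouped with licensing. CCNE2 (chr8:94879770-94896678) rose from 1114 to 2140, a deposited log2 fold change of 0.94 (SE 0.18, adjusted p 5.24e-06), the largest rise of the 46. CCNE1, its paralog, was the least abundant of the 46, with fitted counts of 211 and 292. Its deposited change of 0.47 (SE 0.33, adjusted p 0.366) did not pass, and its interval, -0.18 to 1.12, was the widest. Exons of CCNE2 overlap those of INTS8 on the opposite strand over 1522 bp. INTS8 itself had a deposited change of 0.40 (adjusted p 0.0792). The library kit keeps strand, but whether counting used it is not given in the sources used here, so reads in that stretch could belong to either gene.

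The helicase genes included 6 of the 12 falls, with 6 lower, 1 higher and 5 not past the threshold among 12, and a median log2 fold change of -0.41. The 6 subunits of the MCM ring all had negative values, from -0.80 to -0.23. MCM4 (chr8:47960185-47978160), the most abundant of the 46 by count, had fitted counts of 31726 in wild type and 18241 in the knockout, a deposited log2 fold change of -0.80 (SE 0.15, adjusted p 1.39e-06). MCM2 fell from 9745 to 7192 (deposited -0.44, SE 0.15, adjusted p 0.0246). MCM5 fell from 7544 to 5456 (deposited -0.47, SE 0.16, adjusted p 0.0180). MCM3 (19666 and 15107, deposited -0.38, adjusted p 0.108), MCM6 (8339 and 7022, -0.25, adjusted p 0.269) and MCM7 (16657 and 14196, -0.23, adjusted p 0.289) did not pass. These 6 proteins form 1 ring with 1 copy of each, while their fitted RNA levels per kilobase of transcript differed between subunits in both genotypes. On that per-kilobase scale the mean level ran from 1880 for MCM5 to 6253 for MCM7, and MCM4 went from the highest of the 6 in wild type (7810) to below MCM7 (5754) and MCM3 (4924) in the knockout (4491). The summed fitted count of the ring went from 93676 to 67214, 71.8% of wild type. This is a sum of counts and not a level of the ring, and MCM4 made the largest part of the drop.

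GINS, which has 4 subunits, was the complex in which all members passed the threshold, and they did not move together. GINS1 fell from 2915 to 2032 (deposited log2 fold change -0.52, SE 0.17, adjusted p 0.0137). GINS2 (chr16:85676198-85690073) fell from 3437 to 1992 (deposited -0.79, SE 0.20, adjusted p 0.00133), and GINS3 (chr16:58295080-58406147) from 1827 to 1015 (deposited -0.85, SE 0.19, adjusted p 0.000168). GINS4 (chr8:41529218-41545030) rose from 933 to 1671, a deposited change of 0.84 (SE 0.20, adjusted p 0.000523). Per kilobase, GINS4 was the lowest of the 4 in wild type at 248, against 831 to 1308 for the others. In the knockout the 4 lay between 443 and 758, so the spread between subunits narrowed. CDC45, which joins GINS on the ring, had 1437 and 1150 (deposited -0.32, adjusted p 0.254), and MCM10, a factor needed to start the helicase, had 2873 and 2525 (deposited -0.19, adjusted p 0.507). Neither CDC45 nor MCM10 passed.

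**Figure D2:**
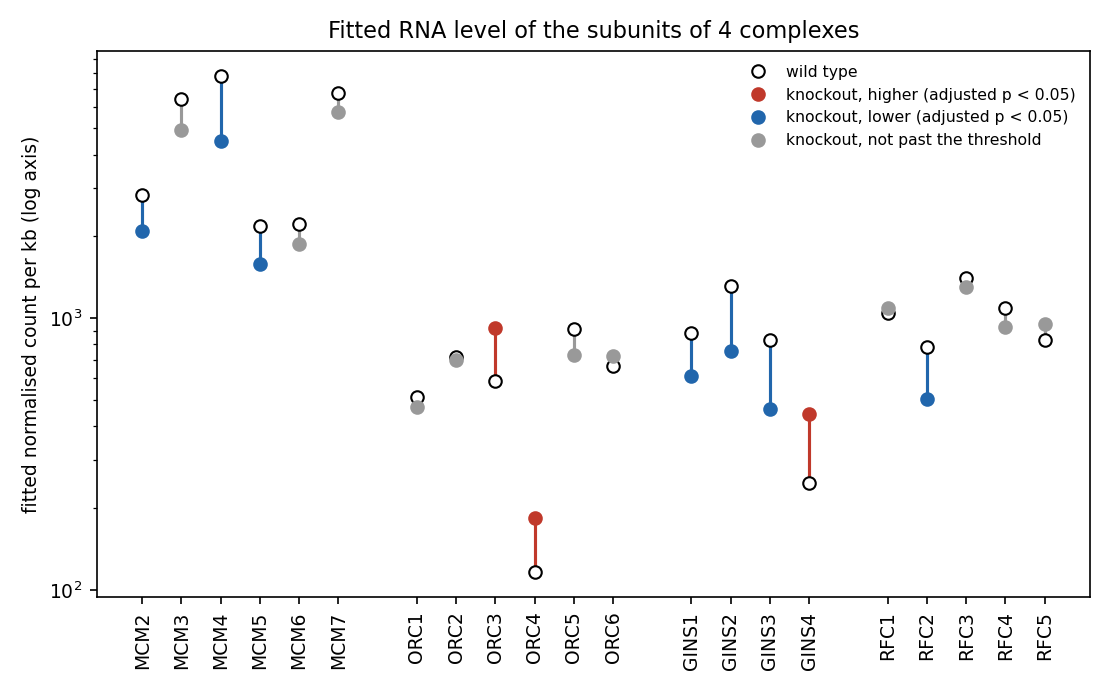
Fitted normalised RNA count per kilobase of transcript (log axis) for the subunits of the MCM ring, the origin recognition complex, GINS and the clamp loader. Open circles are wild type and filled circles the knockout, with no error shown, since fitted levels carry no SE of their own. GINS4 rises from 248 to 443 while GINS1, GINS2 and GINS3 fall towards it.

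All 9 polymerase genes had negative values, from -0.97 to -0.02, with 2 lower, 0 higher and 7 not past the threshold. POLD1, the catalytic subunit of polymerase delta (chr19:50384204-50418018), had fitted counts of 8654 in wild type and 4433 in the knockout, a deposited log2 fold change of -0.97 (SE 0.22, adjusted p 0.000139). Its partners POLD2 and POLD3 had deposited values of -0.35 (adjusted p 0.187) and -0.09 (adjusted p 0.813) and did not pass. PRIM1, the catalytic primase subunit (chr12:56730438-56752374), fell from 1173 to 749 (deposited -0.65, SE 0.20, adjusted p 0.0114). PRIM2, the regulatory primase subunit, had 768 and 759 (deposited -0.02, adjusted p 0.981). Near-identical partial copies of PRIM2 exist in the genome, so its count is uncertain. POLA1, the catalytic subunit of polymerase alpha, had 4140 and 3186 (deposited -0.38, SE 0.16, adjusted p 0.0779), just short of the threshold, and POLA2 had -0.20. POLE and POLE2, the leading strand polymerase and its second subunit, had -0.20 and -0.07, with adjusted p of 0.449 and 0.894. By summed fitted count, polymerase delta had 65.9% of its wild-type sum, polymerase alpha with primase 79.4%, and the 2 epsilon genes among the 46, POLE and POLE2, 87.6%. With their small subunits added, which are not among the 46, the order changed: epsilon with POLE3 and POLE4 had 64.4% and delta with POLD4 66.3%. These are sums of counts and not levels of a complex. POLD1 in delta and POLE3 (16198 and 8257) in epsilon made most of the drop.

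Of the 11 genes of the clamp, loader and lagging strand, 3 fell, none rose and 8 did not pass, with a median log2 fold change of -0.17. RPA2, a subunit of the protein that coats single-stranded DNA (chr1:27891524-27914746), fell from 5779 to 3329, a deposited change of -0.80 (SE 0.16, adjusted p 7.99e-06). Its partners RPA1 and RPA3 had -0.17 and -0.04, with adjusted p of 0.520 and 0.955. LIG1, which seals lagging strand fragments (chr19:48115445-48170603), fell from 6028 to 3798 (deposited -0.67, SE 0.18, adjusted p 0.00158), while FEN1, the nuclease that trims the same fragments, had 4250 and 3572 (deposited -0.25, adjusted p 0.349). RFC2, 1 of the 5 clamp loader subunits (chr7:74231499-74254458), fell from 1323 to 851 (deposited -0.64, SE 0.23, adjusted p 0.0340). That call was close to the threshold and ended with no filter on low counts (adjusted p 0.0507). The other loader subunits, RFC1, RFC3, RFC4 and RFC5, had values from -0.24 to 0.19. PCNA, the clamp itself and the highest of the 46 by mean level per kilobase, had fitted counts of 9205 and 11038 (deposited 0.26, 95% interval -0.07 to 0.60, adjusted p 0.323). It did not pass.

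Ribonucleotide reductase, which makes deoxyribonucleotides, has a large subunit from RRM1 and a small one from RRM2. RRM2, whose RNA normally peaks in S phase (chr2:10120698-10211725), rose from 6208 to 9501, a deposited log2 fold change of 0.61 (SE 0.17, adjusted p 0.00265). RRM1 had 12115 and 9857, a deposited change of -0.30 (95% interval -0.58 to -0.01, adjusted p 0.144), which did not pass. TYMS, thymidylate synthase, had 8799 and 9964 (deposited 0.18, adjusted p 0.528). TYMS shares 967 bp of exon with the antisense gene ENOSF1, which was counted at a mean of only 8.69.

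The 28 genes that did not pass had log2 fold changes from -0.38 to 0.47. For 27 of them the 95% interval lay within 1 log2 unit of 0, and for 19 within a 1.5-fold change. The lowest bound was -0.72, at MCM3, and the highest 1.12, at CCNE1.

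Accessibility around several of the changed genes had shifted in the same direction as their RNA. For each gene, the median ATAC log2 fold change of the peaks outside promoters within 2.5 Mb on each side was taken as the local level. The 46 genes included 9 where this local median was at least 0.2 from 0, a value set after the data had been seen. Of those 9, 7 passed in RNA, all in the direction of their surroundings, against 11 of the 37 others (29.7%). Over all tested genes, 32.1% passed where the local median was shifted by that much and 16.6% elsewhere, and 828 of the 923 passing genes in shifted regions (89.7%) also moved in the direction of their region. The 7 were ORC3, ORC4, CDT1, MCM4, GINS2, GINS3 and GINS4.

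GINS4 had the highest local ATAC median, 0.98 over 75 peaks, and the 17 RNA neighbours counted within the window had a median of 0.78. ORC3 had 0.75 over 150 peaks, with an RNA neighbour median of 0.94 over 18 genes. On chromosome 16, 3 of the 4 replication genes fell. The local median was -0.54 at GINS2 (196 peaks), -0.40 at CDT1 (160 peaks) and -0.23 at GINS3 (146 peaks), and the RNA neighbours of GINS2 and CDT1 had medians of -0.84 and -0.85. All 3 replication genes on chromosome 8 changed, in both directions: MCM4 fell, where the local median was -0.39, GINS4 rose, and CCNE2 rose where it was 0.01. The local medians of MCM4 and ORC4 depended on the window. Within 5 Mb on each side, the median was 0.11 at MCM4 and 0.10 at ORC4, where it had been 0.45, and MCM4 stood at -0.91 after subtracting it.

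The local ATAC median was then subtracted from each RNA fold change and the test repeated over 16955 genes. Here and in every later subtraction the SE was left as deposited, so error in the local median is not in the adjusted p. The subtraction also takes an ATAC shift to carry over to RNA in full, which was not tested. On these terms 14 of the 46 passed, 3 higher and 11 lower (17.4% of all genes passed, 8.65% higher and 8.78% lower). Of the 18 original calls, 13 kept call and direction. The remaining increases were CCNE2 at 0.94 (adjusted p 7.76e-06), CDC6 at 0.61 (adjusted p 0.00103) and RRM2 at 0.62 (adjusted p 0.00275). GINS4 turned to -0.14 and ORC3 to -0.10, and ORC4 went to 0.22 (adjusted p 0.729, 0.813 and 0.636). GINS2 went to -0.25 (adjusted p 0.471) and RFC2 to -0.53 (adjusted p 0.0999). CDT1 was still lower than the ATAC median around it, at -0.72 (adjusted p 0.00553), as were GINS3 at -0.61 (adjusted p 0.0128) and MCM4 at -0.41 (adjusted p 0.0331). Set beside the RNA of their neighbours, the deposited changes of CDT1 and MCM4 stood closer to their surroundings. The change at CDT1 was -1.12 against a median of -0.85 over 36 genes, and at MCM4 -0.80 against -0.66 over 3 genes. That MCM4 median is the value of PRKDC, which begins 805 bp away on the other strand under the same promoter peak. For GINS3 the values were -0.85 against -0.30 over 27 genes, and for CCNE2 0.94 against 0.46 over 15 genes. These gaps to the RNA neighbours were not tested. The falls of RPA2 (-0.80), POLD1 (-0.88), LIG1 (-0.64), PRIM1 (-0.62), MCM2 (-0.61), GINS1 (-0.56) and MCM5 (-0.48) passed as well, in regions whose ATAC median lay between -0.08 and 0.17. RRM1 passed only after this subtraction, at -0.40 (adjusted p 0.0376). What moves a whole region was not tested.

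**Figure D3:**
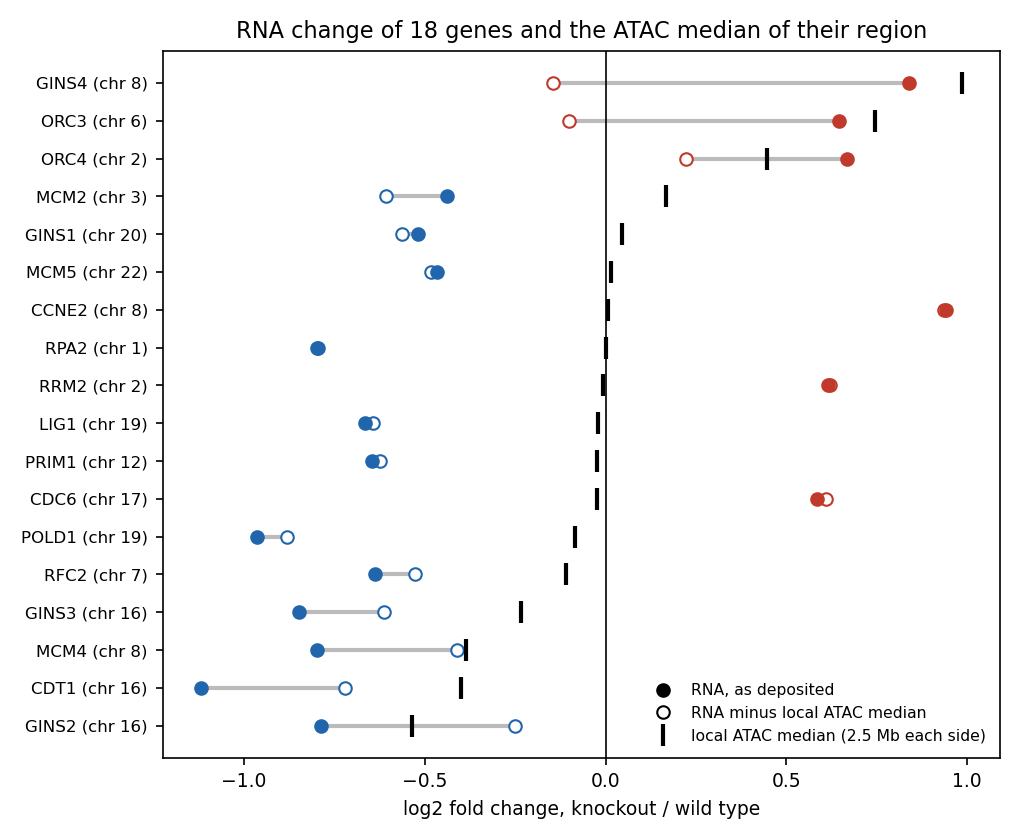
The 18 replication genes that passed in RNA, ordered by the ATAC median of their region. Filled circles are deposited RNA log2 fold changes, open circles the same after subtracting the local ATAC median, and ticks that median (peaks outside promoters within 2.5 Mb on each side). The open circle lies at -0.14 for GINS4, -0.10 for ORC3, 0.22 for ORC4 and -0.25 for GINS2. For RPA2, CCNE2, RRM2 and CDC6 it covers or nearly covers the filled one.

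Promoter accessibility was measured for 31 of the 46 genes by a peak that the deposited annotation places at the promoter. Of these 31 peaks, 5 were lower, 3 higher and 23 did not pass (25.8% past the threshold). Among all 8420 promoter peaks, 34.2% passed, 14.2% higher and 20% lower, so the share for replication genes was not above that background. The MCM4 promoter peak (chr8:47959592-47961833) had fitted ATAC counts of 2864 in wild type and 1411 in the knockout, a deposited log2 fold change of -1.02 (SE 0.06, adjusted p 1.58e-67). It was the largest of the 31, and the 1 that passed a test against a 1.5-fold change. The same 2241 bp peak also covers the start of PRKDC, a DNA repair kinase gene on the other strand that begins 805 bp away, whose RNA had a deposited change of -0.66 (adjusted p 4.23e-05).

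The GINS2 promoter peak went from 1431 to 964 (deposited -0.57, SE 0.08, adjusted p 4.51e-12) and that of CDT1 from 753 to 517 (deposited -0.54, SE 0.11, adjusted p 4.77e-06). Those of POLD1 (1078 and 905, deposited -0.25, adjusted p 0.00795) and MCM3 (2050 and 1766, deposited -0.21, adjusted p 0.00138) were lower by less. The 3 that rose were GINS4 (850 and 1318, deposited 0.63, SE 0.08, adjusted p 1.88e-13), ORC3 (991 and 1365, deposited 0.46, adjusted p 1.62e-08) and CCNE1 (866 and 1025, deposited 0.24, adjusted p 0.0147). After the local ATAC median was subtracted, these 3 stood below the peaks outside promoters around them. GINS4 was at -0.35 (adjusted p 0.000123), ORC3 at -0.28 (adjusted p 0.00130) and CCNE1 at -0.14 (adjusted p 0.201). The falls at GINS2 (-0.03), CDT1 (-0.14) and POLD1 (-0.17) no longer passed, while MCM4 at -0.63 and MCM3 at -0.20 did. Promoter peaks are here set against peaks of another kind. Over all peaks, the median log2 fold change was -0.06 at promoters and 0.007 outside them, and the part of that difference here was not tested.

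RNA and promoter calls never opposed each other in these 31 genes. Both fell for CDT1, MCM4, GINS2 and POLD1, and both rose for ORC3 and GINS4. RNA passed without the promoter for MCM2, MCM5, GINS1, RFC2, LIG1 and RPA2, all lower, and for RRM2, higher. At RPA2 the promoter peak had a deposited log2 fold change of -0.01 (SE 0.08, adjusted p 0.941), beside an RNA change of -0.80. The promoter passed without the RNA for CCNE1 (0.24, beside 0.47 in RNA) and MCM3 (-0.21, beside -0.38), each with both values of 1 sign. Neither assay passed for 16 genes, which does not show that they were unchanged. Whether the assays differed at a gene was not tested. Across the 31 genes the 2 fold changes had a Pearson r of 0.72 and a Spearman rho of 0.60, and 0.30 and 0.37 after subtracting the local median from both. These describe genes, which are not replicates and share regions.

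**Figure D4:**
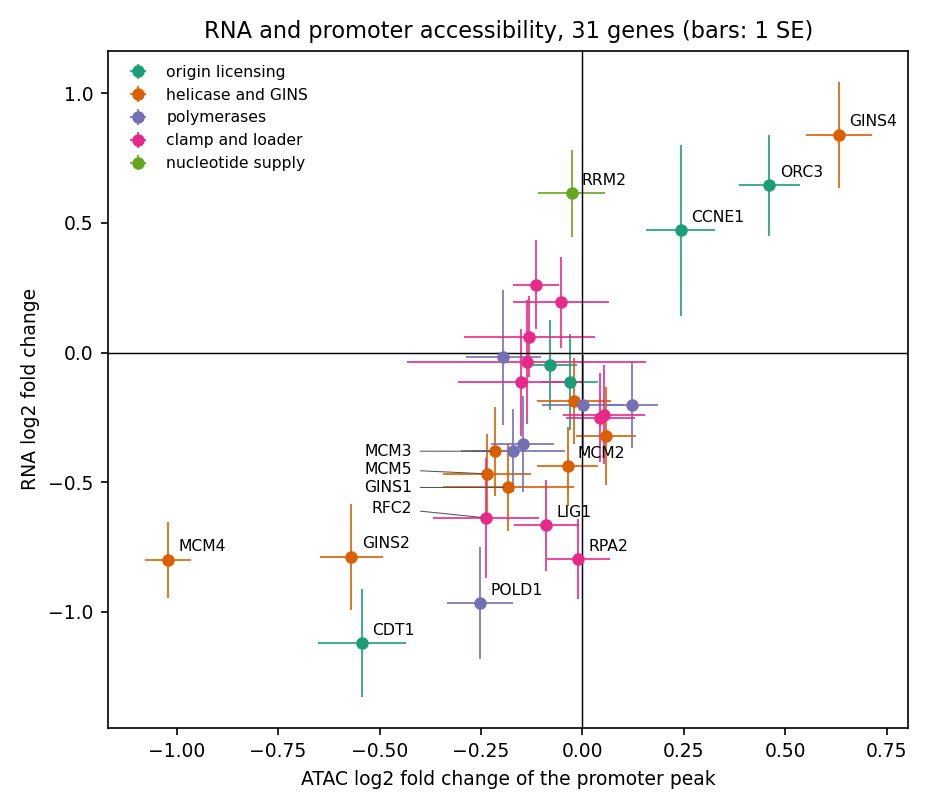
RNA log2 fold change (y axis) against the ATAC log2 fold change of the promoter peak (x axis) for the 31 genes with a promoter peak, coloured by role. Bars are 1 SE (2 libraries per genotype and assay), and named genes passed the threshold in at least 1 assay. GINS4 and ORC3 lie high on both axes, MCM4, GINS2, CDT1 and POLD1 low on both, and RPA2, LIG1 and RRM2 moved in RNA with the promoter near 0.

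Genes without an annotated promoter peak were covered by taking peaks by distance. Within 500 bp of a start, 39 replication genes had a peak under their own name, of which 3 were higher and 6 lower (33.2% of 10502 such peaks in the table passed, 14.2% higher and 19.0% lower). The added fall was GINS3, whose start lies in a peak annotated as exonic (chr16:58391890-58393405), which went from 782 to 464 (deposited -0.75, SE 0.10, adjusted p 9.53e-12) and was still lower at -0.53 after local subtraction. No peak was named for CCNE2, MCM7 or ORC6, since the peaks over their starts carry the names of NDUFAF6, AP4M1 and VPS35. The peak over the CCNE2 start had a deposited change of 0.25 (SE 0.07, adjusted p 0.00152), in the direction of its RNA. Those over MCM7 and ORC6 had -0.08 and -0.07 and did not pass. The peaks over the CDC6 and PRIM1 starts had 0.03 and -0.19 (adjusted p 0.810 and 0.0826). Neither passed, beside RNA changes of 0.59 and -0.65. The peak over the ORC4 start, shared with MBD5, had -0.06 (adjusted p 0.536) although the RNA of both ORC4 and MBD5 rose.

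Of all 128 peaks named for replication genes, 17 were higher, 21 lower and 90 did not pass, so 29.7% passed against 35.9% of all peaks (20.4% higher and 15.5% lower). Their median log2 fold change was -0.08, against -0.01 for all peaks. HOMER names a peak for the nearest start, so a peak far from a gene may act elsewhere. Outside promoters, 14 of 97 were higher and 16 lower, and 14 of the 15 changes of at least 1 log2 unit lay there. CDT1 had a pair of intergenic peaks before its start that fell more than its promoter did. The peak at -4640 bp from the start (chr16:88798881-88799416) went from 586 to 218 (deposited -1.43, SE 0.14, adjusted p 6.37e-24), and that at -1866 bp (chr16:88801771-88802074) from 247 to 111 (deposited -1.15, SE 0.20, adjusted p 5.73e-08). Both remained lower after subtraction of the local median, at -1.04 and -0.76. GINS3 had 5 peaks between 25437 and 33858 bp beyond its start that fell by similar amounts, with deposited values from -0.75 to -0.57.

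Against the fall of its promoter and RNA, GINS2 gained an intronic peak 3314 bp inside the gene (chr16:85685473-85685807), from 39.1 to 182 (deposited 2.22, SE 0.29, adjusted p 2.61e-13), and lost one at its transcript end, from 77.2 to 31.8 (deposited -1.28, adjusted p 0.00542). The largest gain, 2.82 (SE 0.67, adjusted p 0.000157), was at a peak named for RPA3, whose RNA did not pass. That peak is annotated as intronic but lay outside RPA3, at -71065 bp from its start, and rested on a mean of only 20.01 counts. ORC2 (1.46) and RFC1 (1.39) also gained intronic peaks. Intronic peaks named for MCM5 and ORC4, but lying at -7549 and -188205 bp from their starts, gained 1.32 and 1.20. Intronic peaks fell at MCM10 (-1.50), RFC2 (-1.02), PRIM2 (-1.57) and ORC4 (-1.30, at -258198 bp), and an intergenic one fell 174843 bp from the RFC3 start (-1.62). Means for these 9 peaks were between 15.8 and 88.7 counts. Among their genes, ORC4, MCM5 and RFC2 passed in RNA, and MCM5 fell while the peak named for it rose.

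**Figure D5:**
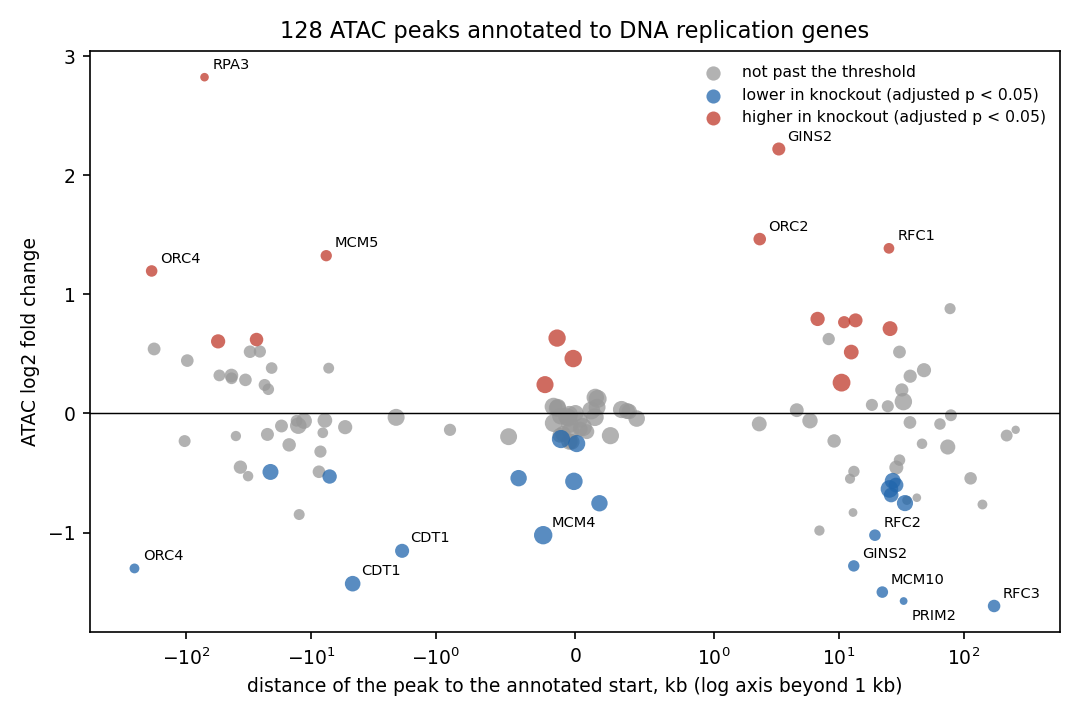
ATAC log2 fold change of the 128 peaks named for replication genes against distance to the annotated start in kilobases (linear within 1 kb, log beyond). Point area grows with the logarithm of the mean count, colours mark the call, and peaks that passed with at least 1 log2 unit are named. Most large points near the start lie close to 0, with MCM4, GINS3, GINS2 and CDT1 below and GINS4 and ORC3 above, and the larger changes belong mostly to small points away from starts.

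Other replication genes were read from lists of genes with neighbouring functions. Over 48 tested genes in 4 lists, 2 rose, 9 fell and 37 did not pass, with a median log2 fold change of -0.14. The share that passed was 22.9%, between the 19.2% of all tested genes and the 27.6% of those with a mean at or above 252. By list it was 17.6% for firing and checkpoint, 35.7% for fork accessory, 25% for chromatin assembly and 11.1% for nucleotide genes. Among 17 origin firing and checkpoint genes, 1 rose and 2 fell. RECQL4, a helicase that helps start forks, had the deepest fall, from 1614 to 448 (deposited -1.85, SE 0.21, adjusted p 7.78e-16), which also passed the test against a 1.5-fold change and stood at -1.003 after subtraction of a local median of -0.84. CDK2, the kinase of cyclin E, fell from 2029 to 1141 (deposited -0.83, SE 0.21, adjusted p 0.000897), opposite to CCNE2. DTL, part of the ubiquitin ligase that destroys CDT1 protein in S phase, rose (deposited 0.50, adjusted p 0.0344), a call that ended after local subtraction (0.43, adjusted p 0.0810). CDC7 and DBF4, the kinase pair that fires origins, had 0.30 and -0.19 and did not pass.

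Of 14 accessory genes of the fork and polymerases, 4 fell and 1 rose. POLE3, a small subunit of polymerase epsilon, fell from 16198 to 8257 (deposited -0.97, SE 0.20, adjusted p 2.70e-05). RNASEH2A and RNASEH2C, which encode parts of the enzyme that removes ribonucleotides from DNA, fell by 0.88 and 1.05 on the log2 scale (adjusted p 0.00167 and 6.06e-05), while RNASEH2B, the remaining subunit, had 0.06. DSCC1, part of an alternative clamp loader, fell (deposited -1.21, adjusted p 6.45e-08) in a region with a local median of -0.82, and the call ended after local subtraction (-0.39, adjusted p 0.186). MCM9, a helicase of recombination repair, rose (deposited 0.61, adjusted p 0.0130), and this call ended as well (0.19, adjusted p 0.601). Among 8 chromatin assembly genes, DNMT1, the maintenance DNA methyltransferase, and CHAF1B, a subunit of the histone chaperone at the fork, fell (deposited -0.51 and -0.67, adjusted p 0.0258 and 0.0418), and the CHAF1B call ended after local subtraction (adjusted p 0.229). Of 9 other nucleotide enzymes tested, SAMHD1, which degrades deoxyribonucleotides, fell from 4057 to 2132 (deposited -0.93, SE 0.17, adjusted p 5.57e-07). It was the 1 call of that list, beside the rise of RRM2, which makes them.

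Among 18 tested E2F and RB family regulators, 2 rose and 5 fell (38.9%), with a median of 0.06. E2F4, a repressor type E2F, fell most (deposited -0.92, SE 0.20, adjusted p 5.20e-05), where the local ATAC median was -0.68, and the call ended after local subtraction (-0.23, adjusted p 0.494). The activator genes E2F1 and E2F2 fell by 0.54 and 0.50 on the log2 scale (adjusted p 0.0304 and 0.0126), and E2F3 had 0.24 and did not pass. RBL2, a pocket protein, fell by 0.47 on the log2 scale (adjusted p 0.0158). MYBL2 fell by 0.49 on the log2 scale (adjusted p 0.0373), and LIN54, which works with it, rose (0.64, adjusted p 0.0189). CDKN1A, the inhibitor of cyclin-dependent kinases, rose (0.57, adjusted p 0.0279). The calls of RBL2 and MYBL2 ended after local subtraction too (adjusted p 0.154 and 0.128). Of 26 mitosis genes, 2 rose and 5 fell (26.9%, beside 27.6% of tested genes with a mean at or above 252). Their median was -0.04, against -0.20 for the 46 replication genes. This difference was not tested. BUB1, a spindle checkpoint kinase, rose from 5786 to 11947 (deposited 1.05, SE 0.15, adjusted p 4.52e-10). CENPA, the centromeric histone, and CDC20 and BIRC5, which act in anaphase and chromosome segregation, fell (deposited -1.19, -0.66 and -0.60). MKI67, the proliferation marker, had -0.26 (adjusted p 0.220) and did not pass. Local subtraction also added calls: MKI67 passed at -0.49 (adjusted p 0.00810) and PLK1, a mitotic kinase, at -0.63 (adjusted p 0.000980, deposited 0.16), as did CHTF18 of the alternative clamp loader (-1.26, adjusted p 5.64e-06, deposited -0.14) and DTYMK, thymidylate kinase (-0.56, adjusted p 0.0185, deposited 0.40), the last 3 in regions with local medians from 0.79 to 1.11.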

How the data were processed

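Raji RNA-seq (poly(A) RNA) and ATAC-seq libraries, 2 per genotype and assay, were sequenced, and 1 result table per assay was used. Per the submitters' processing notes, Bowtie2, cutadapt, DESeq2, featureCounts, HOMER, STAR, Trim Galore and Trimmomatic were used with GRCh38 or hg38, with no order stated. Versions, settings and the peak caller: not given in the sources used here. In the authors' deposited tables, the signal is the mean over 4 libraries of counts divided by DESeq2 size factors, per the file headers. The authors' log2 fold change comes with its SE, also on the log2 scale. The authors' Wald score was checked to be that ratio (largest gap 8.17e-14 for RNA), and each deposited p-value to be its two-sided p, adjusted by Benjamini-Hochberg. The other unit deposited is the distance in bp from a peak to a start, by HOMER.

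The planned edgeR test needs counts per library and could not be run on these tables, so the authors' deposited DESeq2 test, planned for that case, was used at an adjusted p under 0.05. Genes without an adjusted p (8364, mean at most 4.30) counted as not tested. Fitted counts per genotype (wild type 2 × mean / (1 + fold), knockout that times the fold), 95% Wald intervals, levels per kilobase of the GENCODE release 44 transcript, and local ATAC medians (at least 20 peaks within 2.5 Mb) were computed with Python 3.11.15, numpy 2.4.6, scipy 1.17.1 and pandas 2.3.3, and tested on simulated data. Size factors were recovered from genes with 1 read in 1 library. Depth per ATAC library is unknown.

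The 46 genes, the roles and the other lists were chosen with earlier results of these data known. Genes past the threshold were given in full, peaks past it at 1 log2 unit or at the promoter of a changed gene, and up to 4 genes with the smallest adjusted p from each other list. MCM9, CDC7, DBF4, RNASEH2B, E2F1, E2F3, MYBL2, CDKN1A, MKI67 and the other genes outside this rule were added after their values were seen.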

Additional observations from a re-analysis of the deposited data

How the results depend on the processing

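No paired analysis was possible because the deposited tables hold no values per library; for the same reason edgeR, a replicate block and leaving out a library were not run. Centring on the median of all genes or peaks changed none of the counts by more than 1.5 times, nor did a fit with no filter on low counts, which ended the calls of ORC4 and RFC2 (adjusted p 0.0590 and 0.0507). Against a 1.5-fold change, the 18 RNA calls (6 higher, 12 lower) fell to 0, the 38 peak calls (17 higher, 21 lower) to 6 (2 higher, 4 lower) and the 8 promoter calls (3 higher, 5 lower) to 1 (0 higher, 1 lower). With statistics divided by their robust spread, the counts were 0 in RNA, 3 peaks (0 higher, 3 lower) and 1 promoter (0 higher, 1 lower). Fewer tests pass by construction in both. A minimum mean of 100 left 11 higher peaks, and promoter peaks alone gave 8 calls (3 higher, 5 lower). Subtracting the local ATAC median left 3 higher genes, also with 5 Mb windows (chosen after seeing the data), 11 higher peaks, and 5 promoter calls with 0 higher. It turned the RNA change of ORC3 to -0.10 (-0.0305 with 5 Mb) and of GINS4 to -0.14 (-0.0434 with 5 Mb), and the promoter change of CCNE1 to -0.14, GINS4 to -0.35 and ORC3 to -0.28. With 5 Mb, POLA1 passed (-0.42, adjusted p 0.0485), while RRM1 and ORC4 did not (adjusted p 0.0629 and 0.0976). The cause was not tested. Precision is limited by 2 libraries per genotype: the SE of the 46 genes ran from 0.14 to 0.33.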

Other observations

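Several replication genes have a close neighbour on the other strand. RARS2, a mitochondrial arginyl-tRNA synthetase gene that begins 148 bp from ORC3 on the other strand, rose by 1.08 log2 units (SE 0.19, adjusted p 7.10e-07), beside 0.64 for ORC3. MBD5, which begins 354 bp from ORC4, rose by 1.11 (SE 0.22, adjusted p 7.74e-06), beside 0.67 for ORC4. GSE1, which does not share the GINS2 start but overlaps its exons on the opposite strand by 3 bp, fell by 1.02 on the log2 scale (SE 0.18, adjusted p 2.68e-07), beside -0.79 for GINS2. ZSWIM9, 336 bp from LIG1, had -0.71 but did not pass (adjusted p 0.149). PRPF38A beside ORC1, VPS35 beside ORC6, UFD1 beside CDC45, SMYD4 beside RPA1, TMEM258 beside FEN1, AP4M1 beside MCM7 and PXMP2 beside POLE had values from -0.70 to 0.17, and, like these 7 replication genes, none passed. All values are from the authors' deposited table (DESeq2 Wald test).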
